A study of Mus musculus with 6 samples.

Results

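Claudins are the membrane proteins from which tight junction strands are built, and the 10 claudin genes described here are Cldn1, Cldn2, Cldn3, Cldn4, Cldn5, Cldn7, Cldn8, Cldn12, Cldn15 and Cldn23, a named set of sealing and pore-forming family members taken by gene symbol, out of 54446 genes in the count table. All 10 were found once each by symbol and all 10 passed the filter on low counts. They were measured by RNA sequencing of mouse intestine at 96 h in 3 samples labelled NEC (necrotizing enterocolitis) and 3 labelled control. All mice were wild type (WT). NEC pups were gavaged with 40 µl of Esbilac milk replacer at 33% every 4 h and were stressed every 12 h by 100 s of 99.9% nitrogen followed by 10 min at 4 °C. Control pups stayed with the dam and had neither stress. The NEC group therefore differs from the control group in feeding (formula by gavage against staying with the dam), hypoxia and cold together. These cannot be told apart. The labels state no strain, age, sex or segment of intestine, and they do not say whether a sample is 1 animal or a pool. The p-values below therefore rest on sample-to-sample spread that could be partly technical.

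Each claudin crosses the membrane of an epithelial or endothelial cell and meets claudins of the neighbouring cell through its extracellular loops, and the mix of claudins sets which ions and molecules pass between cells. Claudins such as those encoded by Cldn1, Cldn3, Cldn4, Cldn5 and Cldn8 tighten the seal, while those encoded by Cldn2 and Cldn15 form channels for small cations, and Cldn2 also for water. In the mouse small intestine the sodium that returns to the lumen through Cldn2 and Cldn15 channels feeds sodium-coupled nutrient uptake, with Cldn2 high in suckling pups and Cldn15 taking over in older animals. Necrotizing enterocolitis is a disease of the newborn gut in which barrier loss is a central feature.

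The promoters of 4 claudins on which the results turn are shown first, Cldn2 because its counts were present or nearly absent by library, and Cldn4, Cldn12 and Cldn15 because they are 3 of the 4 claudins with unadjusted p-values below 0.05 (Cldn23 is the other). Sequences are those of RefSeq on GRCm38.p6, run from 250 bases before the start site to 50 after it, and are written 5′ to 3′ on the strand of the gene. Promoters were given for 8 of the 10 genes, not for Cldn8 and Cldn23. Where RefSeq lists several start sites the one nearest the GENCODE gene start was taken, and that of Cldn15 lies 1253 bases from the GENCODE start. Capitals mark TGANTCA, the core of the site bound by AP-1 factors, and TTTAT or its reverse complement ATAAA, the core of the site bound by CDX factors, on either strand.
Cldn2, chrX:139800558-139800857, plus strand: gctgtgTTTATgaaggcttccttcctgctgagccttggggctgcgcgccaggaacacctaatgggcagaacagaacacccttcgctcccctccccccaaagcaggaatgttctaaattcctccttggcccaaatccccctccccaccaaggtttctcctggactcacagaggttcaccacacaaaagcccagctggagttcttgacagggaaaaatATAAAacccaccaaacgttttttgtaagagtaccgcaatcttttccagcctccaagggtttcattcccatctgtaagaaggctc
Cldn4, chr5:134946885-134947184, minus strand: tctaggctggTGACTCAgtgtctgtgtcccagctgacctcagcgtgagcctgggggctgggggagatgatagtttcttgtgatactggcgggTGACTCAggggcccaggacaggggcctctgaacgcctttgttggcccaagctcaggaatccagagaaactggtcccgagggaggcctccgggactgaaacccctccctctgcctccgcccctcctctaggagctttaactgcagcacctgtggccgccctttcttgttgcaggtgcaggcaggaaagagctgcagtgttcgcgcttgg
Cldn12, chr5:5514927-5515226, minus strand: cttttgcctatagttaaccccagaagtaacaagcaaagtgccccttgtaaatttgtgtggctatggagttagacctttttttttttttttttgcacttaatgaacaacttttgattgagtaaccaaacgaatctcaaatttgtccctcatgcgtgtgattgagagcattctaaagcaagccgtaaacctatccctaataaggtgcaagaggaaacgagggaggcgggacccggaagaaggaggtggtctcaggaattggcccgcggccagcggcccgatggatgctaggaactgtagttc
Cldn15, chr5:136967619-136967918, plus strand: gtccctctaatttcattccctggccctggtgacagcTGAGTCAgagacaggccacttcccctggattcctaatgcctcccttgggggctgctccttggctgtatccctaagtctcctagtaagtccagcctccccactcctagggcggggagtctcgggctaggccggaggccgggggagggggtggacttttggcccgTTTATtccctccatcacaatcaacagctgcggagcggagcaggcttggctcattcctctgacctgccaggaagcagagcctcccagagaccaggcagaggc

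TGANTCA stood 240 and 158 bases before the start of Cldn4 and 214 before that of Cldn15, and in none of the other 6 claudin promoters searched. It was present in 7.81% of all 32851 promoters of the same length. TTTAT or ATAAA stood 244 and 34 bases before the start of Cldn2 and 51 before that of Cldn15, against 40.0% of all promoters, and the second match in Cldn2 overlaps a TATAAA (13.6% of all promoters). The window of Cldn12 held none of these, nor GTTAAT (7.10% of all promoters) or GGGCGG (35.7%), which were also searched on both strands. GGGCGG stood 44 and 5 bases before the start of Cldn4 and 108 before that of Cldn15. These are matches of letters and not measured sites.

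Library totals ran from 74912430 to 97445491 counts in NEC samples and from 69441184 to 106304239 in control samples. Low counts gathered at multiples of 4 (median 1.89 times their neighbouring values for counts up to 40). Sample codes in the labels begin AG181028 for NEC replicate 1 and control replicate 3 and AG181017 for the other 4, and NEC replicate 1 and control replicate 3 deviated from their group means together across genes (r = 0.45 across genes, which are not independent replicates). Control replicates 1 and 2 held Xist at 179 and 344 CPM (counts per 1000000 after TMM scaling), against 0.429 to 1.17 CPM in the other 4 libraries. The Y-linked Ddx3y stood at 1.29 CPM in control replicate 2 and at 19.8 to 44.8 CPM in the other 5, control replicate 1 among them. All NEC libraries thus had low Xist with Ddx3y present, unlike control replicates 1 and 2. Sex make-up may therefore also differ between the groups, and its part in the claudin values was not tested. Posterior Hox genes that mark the colon, Hoxa13, Hoxb13 and Hoxd13, were at 0 in all 6 libraries. Epithelial markers, 10 genes including Epcam, Cdh1 and Vil1, summed to 10492 to 14176 CPM in NEC and 10454 to 12269.5 CPM in control libraries, and 0 of 10 were called by edgeR (1 at an unadjusted p below 0.05), 1 by DESeq2 (Krt19, higher in NEC) and 0 by limma-voom.

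None of the 10 claudins passed the test for a difference between NEC and control (edgeR quasi-likelihood, Benjamini-Hochberg adjusted p below 0.05), against 0.704% of the 19176 genes tested. DESeq2 called 0 of the 10 as well, against 7.57% of all genes, and had 4 of 10 at an unadjusted p below 0.05, against 18.7%. Limma-voom called 0 of the 10, against 0.787% of all genes, and had 3 of 10 at an unadjusted p below 0.05, against 16.2%. At an unadjusted p below 0.05 there were 4 of 10, Cldn4 and Cldn23 with positive and Cldn12 and Cldn15 with negative log2 fold changes, against 15.6% of all genes. NEC and control libraries did not overlap for 2 of 10, Cldn12 and Cldn15, against 22.4% of all genes. The median log2 fold change (NEC minus control) was 0.16 over the 10 claudins and 0.026 over all genes, with 6 claudins above 0 and 4 below. A missed threshold does not show that a claudin was alike in both groups: the 95% intervals reached 3.60-fold of control for Cldn4 and 4.20-fold for Cldn23, and went down to 0.405-fold for Cldn12 and 0.216-fold for Cldn15.

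**Figure D1:**
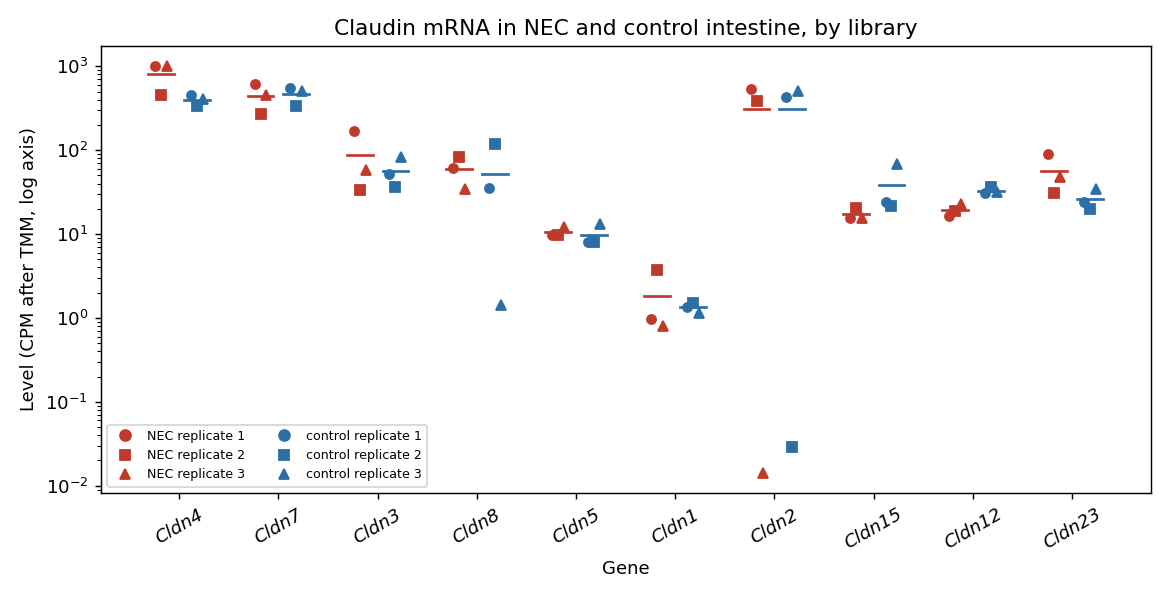
Level of each claudin in CPM on a log axis, 1 point per library and a line at the group mean, with NEC left of control for each gene. Cldn12 and Cldn15 are the genes whose groups do not overlap, and Cldn2 falls to 0.0144 CPM in NEC replicate 3 and 0.0287 CPM in control replicate 2, so its mean lines describe no library.

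Cldn4 and Cldn7 were the most abundant claudins per length and Cldn1 the rarest. Per length, in CPM per kilobase of exon, Cldn4 averaged 448 ± 174.5 in NEC and 219.6 ± 33.6 in control, and Cldn7 averaged 230.0 ± 87.2 in NEC and 240.1 ± 59.3 in control (SD, n = 3 each). Cldn2 came next, at 117 to 160 CPM per kilobase in the 4 libraries that held it. Then followed Cldn3 at 69.2 ± 57.7 in NEC and 45.4 ± 18.8 in control, Cldn23 at 30.3 ± 16.2 in NEC and 14.0 ± 3.99 in control, and Cldn8 at 25.1 ± 10.2 in NEC and 21.9 ± 25.4 CPM per kilobase in control. Cldn15, Cldn5 and Cldn12 stood at 8.07 ± 1.25, 7.46 ± 0.976 and 4.61 ± 0.809 CPM per kilobase in NEC and 17.9 ± 12.3, 6.87 ± 2.04 and 7.77 ± 0.697 in control. Cldn1 was last, at 0.376 ± 0.333 in NEC and 0.277 ± 0.0385 in control. In NEC the libraries of neighbours in the order overlapped except between Cldn8 and Cldn15, between Cldn5 and Cldn12 and between Cldn12 and Cldn1. In control the order was Cldn7, Cldn4, Cldn2, Cldn3, Cldn8, Cldn15, Cldn23, Cldn12, Cldn5 and Cldn1, and neighbours overlapped (Cldn2 and Cldn3 only through control replicate 2) except between Cldn4 and Cldn2, between Cldn23 and Cldn12 and between Cldn5 and Cldn1. In CPM that is not corrected for length, Cldn8 stands above Cldn23 and Cldn12 above Cldn15 and Cldn5 in NEC, and Cldn12 stands above Cldn23 in control.

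Cldn4, a sealing claudin and one of the receptors of Clostridium perfringens enterotoxin, had the largest difference in mean CPM among the 10. Its level was 1000.35, 448.5 and 994.4 CPM in NEC replicates 1 to 3, against 455.5, 334.2 and 406.9 CPM in control replicates 1 to 3. NEC replicates 1 and 3 stood above all controls, and NEC replicate 2 lay just under control replicate 1, so the groups overlapped. The level was 2.04-fold that of control (log2 fold change 1.03, SE 0.35, 95% interval 0.21 to 1.85, edgeR adjusted p = 0.227). Cldn4 (ENSMUSG00000047501, chromosome 5, 134945119 to 134946934, minus strand) lies 39279 bases from Cldn3 on the GENCODE M21 annotation of mm10. Set against the summed epithelial markers, Cldn4 was 75.0, 42.8 and 70.2 per 1000 CPM of markers in NEC libraries, against 38.9, 27.2 and 38.9 in control libraries, and on this scale the groups did not overlap. The share of all genes without overlap on this scale was not computed.

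Cldn3 (ENSMUSG00000070473, chromosome 5, 134986214 to 134987472, plus strand), a sealing claudin that also binds the enterotoxin, differed by less than the spread between libraries. It had 169.7, 33.2 and 58.3 CPM in NEC replicates 1 to 3 and 52.4, 36.1 and 82.7 CPM in control replicates 1 to 3. The highest NEC and the highest control value both came from the AG181028 samples. The log2 fold change was 0.61 (SE 0.59, 95% interval -0.77 to 1.98, edgeR adjusted p = 0.688), and without NEC replicate 1 it was -0.32. An antisense gene, Wbscr25, shares 40 bases of exon with Cldn3 and averaged 0.198 CPM in NEC and 0.0822 CPM in control.

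Cldn7 (ENSMUSG00000018569, chromosome 11, 69964779 to 69967885, plus strand), which pairs with the adhesion protein Epcam and whose loss in mice causes intestinal inflammation, differed by less than the spread between libraries. It had 611, 272 and 460 CPM in NEC and 555, 337 and 512 CPM in control replicates 1 to 3. The groups overlapped fully, with the lowest value of each group in its replicate 2. The log2 fold change was -0.06 (SE 0.35, edgeR adjusted p = 0.963), and its 95% interval of -0.88 to 0.76 runs from 0.543-fold to 1.69-fold of control.

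Cldn8 (ENSMUSG00000050520, chromosome 16, 88560828 to 88563183, minus strand), a sealing claudin of tight distal epithelia, had 61.4, 82.0 and 34.0 CPM in NEC replicates 1 to 3, against 35.9, 118 and 1.41 CPM in control replicates 1 to 3. Control replicate 3 stood far below the rest, and the other 5 lay between 34.0 and 118 CPM. The log2 fold change was 0.19 (SE 1.11, edgeR adjusted p = 0.963), -0.38 without control replicate 3 and 1.66 without control replicate 2. By limma-voom it was 1.76, with the replicate number as a block 1.40 and with the sample code as a term 1.01, and none of these fits called it.

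Cldn5 (ENSMUSG00000041378, chromosome 16, 18776847 to 18778262, plus strand), known for sealing endothelium of the blood-brain barrier, had 9.75, 9.77 and 12.2 CPM in NEC and 8.15, 7.96 and 13.1 CPM in control libraries, and the groups overlapped. Its log2 fold change was 0.12 (SE 0.30, 95% interval -0.58 to 0.82, edgeR adjusted p = 0.905). The 13 blood endothelial markers, among them Pecam1 and Cdh5, summed to 148 to 322 CPM in NEC and 125 to 338 CPM in control, and 0 of 13 were called or had an unadjusted p below 0.05 by edgeR, DESeq2 or limma-voom; none was at 0 in every library. The 5 lymphatic markers summed to 45.9 to 77.9 CPM in NEC and 23.8 to 25.1 CPM in control, and 1 of them, Lyve1, was called higher. Most of the NEC sums came from Lyve1, which averaged 42.8 CPM in NEC and 6.84 CPM in control. The other lymphatic markers were not called and did not move as one. Mean CPM in NEC and control was 8.33 and 4.16 for Pdpn, 5.25 and 3.38 for Prox1 and 6.05 and 4.94 for Flt4. Ccl21a went the other way, at 1.42 CPM in NEC and 4.98 CPM in control. The part of either list in the Cldn5 value was not tested. In bulk tissue, fewer cells of a type and less RNA per cell cannot be told apart, for this and every other gene described here.

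Cldn1 (ENSMUSG00000022512, chromosome 16, 26356642 to 26371841, minus strand), whose loss lets water escape through mouse skin, had 0.975, 3.68 and 0.805 CPM in NEC and 1.35, 1.52 and 1.15 CPM in control libraries. NEC replicate 2 stood above all the others and NEC replicates 1 and 3 stood below all controls. The log2 fold change was 0.44 (SE 0.63, edgeR adjusted p = 0.798), and without NEC replicate 2 it was -0.59. Mesothelial markers were also highest in NEC replicate 2, where 6 genes including Msln and Upk3b summed to 91.7 CPM. The other 5 libraries held 4.74 to 21.1 CPM, and none of the 6 genes was at 0 in every library. Sums of smooth muscle, fibroblast, and neuron and glia markers were highest in NEC replicate 2 as well, at 3009, 1884 and 67.7 CPM. The part of any of these lists in the Cldn1 value was not tested.

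Of the channel-forming claudins, Cldn2 was present in 4 libraries and nearly absent from 1 of each group. Cldn2 (ENSMUSG00000047230, chromosome X, 139800828 to 139811386, plus strand) had 50733, 34538 and 1 counts in NEC replicates 1 to 3 and 31135, 2 and 53831 counts in control replicates 1 to 3. As CPM this was 532, 390 and 0.0144 in NEC, against 424, 0.0287 and 512 in control. Exact Poisson 95% intervals, which cover counting error only, reached 0.0801 CPM for NEC replicate 3 and 0.104 CPM for control replicate 2. Among the 4 libraries that held it, the NEC values of 532 and 390 CPM spanned the control values of 424 and 512 CPM. The fit gave a log2 fold change of -0.02 with a 95% interval of -5.43 to 5.39 (edgeR adjusted p = 0.998), so it places no useful limit on a difference.

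The flanking genes on chromosome X were counted in every library, Tbc1d8b at 25.7, 11.3 and 12.8 CPM in NEC and 21.5, 29.6 and 38.4 CPM in control, and Morc4 at 2.29, 3.45 and 2.31 CPM in NEC and 2.73, 4.07 and 3.42 CPM in control. Cdx2, an intestinal transcription factor known to act on Cldn2, was 132 CPM in NEC replicate 3 and 190 CPM in control replicate 2, within 132 to 245 CPM over all libraries. GENCODE M21 places no other gene over Cldn2. As to Xist and Ddx3y, NEC replicate 3 had 0.546 CPM of Xist and 35.1 CPM of Ddx3y, while control replicate 2 had 344 CPM of Xist and 1.29 CPM of Ddx3y. Few genes had a pattern like that of Cldn2: of 10242 genes that reached 10 CPM in some library, 10 were in each library either at 10 CPM or above or under 0.3 CPM. They include Adnp, a widely expressed chromatin gene, with 0.177 and 0 CPM in control replicates 1 and 2 and 48.6 to 76.3 CPM in the other 4, named here after its values were seen. The cause of such low values was not tested.

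**Figure D2:**
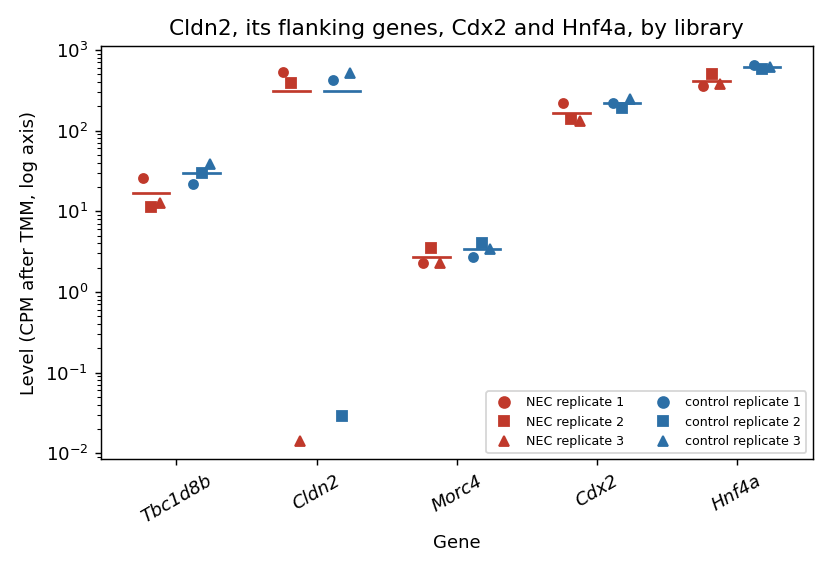
Cldn2, the genes on either side of it (Tbc1d8b, Morc4) and the transcription factors Cdx2 and Hnf4a, in CPM on a log axis with 1 point per library, a line at each group mean and NEC left of control. Cldn2 lies at 390 to 532 CPM in 4 libraries and under 0.03 CPM in NEC replicate 3 and control replicate 2, while the other 4 genes are present in all 6.

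Cldn15 (ENSMUSG00000001739, chromosome 5, 136966616 to 136975858, plus strand), a cation channel claudin of the small intestine, was lower in every NEC library than in any control. It had 15.6, 20.2 and 15.6 CPM in NEC replicates 1 to 3, against 24.4, 21.7 and 68.2 CPM in control replicates 1 to 3. The groups came closest at their replicates 2, and control replicate 3 alone stood far above the rest. The level was 0.450-fold that of control (log2 fold change -1.15, SE 0.46, 95% interval -2.21 to -0.09, edgeR adjusted p = 0.283). Without control replicate 3 the log2 fold change was -0.43. Per 1000 CPM of epithelial markers Cldn15 was 1.17, 1.93 and 1.10 in NEC and 2.08, 1.76 and 6.52 in control libraries, where the groups overlapped. The 5 proximal small intestine markers summed to 471 to 665 CPM in NEC and 1213 to 1530 CPM in control. Most of this came from the iron exporter gene Slc40a1, and none was at 0 in every library. Onecut2 stood at 37.5 CPM in control replicate 3, where Cldn15 was highest, and at 0.713 to 7.03 CPM in the other libraries. Pdx1 stood at 1.52 CPM there and at 0.0564 to 0.172 CPM in the others. The 7 crypt and proliferation markers summed to 84.8 to 333 CPM in NEC and 360 to 510 CPM in control, with none at 0 in every library. Olfm4 gave 18.1, 121 and 105 CPM of these sums in NEC replicates 1 to 3 and 284, 328 and 221 CPM in control replicates 1 to 3. The list did not move as one: log2 fold changes were 0.12 for Lgr5, 0.25 for Top2a, -0.26 for Mki67 and -0.56 for Sox9. By edgeR 0 genes of either list were called, with 1 proximal and 3 crypt genes at an unadjusted p below 0.05, while DESeq2 called those 4 lower in NEC (Slc40a1, Olfm4, Axin2 and Ascl2) and limma-voom 0. Their part in the Cldn15 value was not tested.

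Cldn12 (ENSMUSG00000046798, chromosome 5, 5489537 to 5514958, minus strand), which lacks the usual tail for binding scaffold proteins and is linked in mice to paracellular calcium, was lower in all 3 NEC libraries. It stood at 16.3, 19.1 and 23.1 CPM in NEC replicates 1 to 3, against 30.7, 36.2 and 31.7 CPM in control replicates 1 to 3. The groups did not overlap. The level was 0.593-fold that of control (log2 fold change -0.75, SE 0.24, 95% interval -1.30 to -0.20, edgeR adjusted p = 0.191). With 1 library left out the log2 fold change stayed between -0.89 and -0.64, and by DESeq2 the adjusted p was 0.0564, so no fit called it. Per 1000 CPM of epithelial markers it was 1.22, 1.82 and 1.63 in NEC and 2.62, 2.95 and 3.03 in control, again without overlap.

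Cldn23 (ENSMUSG00000055976, chromosome 8, 35824712 to 35826559, minus strand), a claudin of mature surface epithelium, had 88.9, 30.7 and 48.1 CPM in NEC replicates 1 to 3, against 23.9, 19.8 and 34.1 CPM in control replicates 1 to 3. NEC replicates 1 and 3 exceeded all controls, and NEC replicate 2 lay below control replicate 3. The level was 2.15-fold that of control (log2 fold change 1.11, SE 0.41, 95% interval 0.15 to 2.07, edgeR adjusted p = 0.260). Without NEC replicate 1 the log2 fold change was 0.60. Both AG181028 samples had the highest value of their group. On the epithelial marker scale Cldn23 was 6.66, 2.93 and 3.40 in NEC and 2.04, 1.61 and 3.26 in control libraries, where the groups overlapped.

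**Figure D3:**
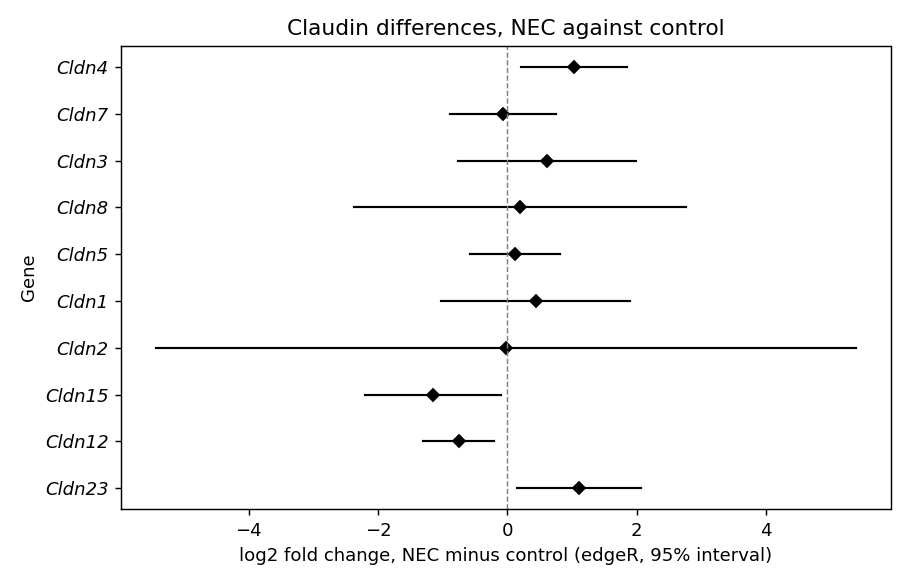
Log2 fold change of each claudin, NEC minus control, as a diamond with its 95% interval from the edgeR fit of all 6 libraries. The intervals of Cldn4, Cldn23, Cldn12 and Cldn15 leave out 0 before adjustment, and that of Cldn2 runs from -5.43 to 5.39.

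Within the sample codes, the 4 genes with unadjusted p below 0.05 had the same sign in both sets. So did Cldn3, at 0.015 in the AG181017 and 1.04 in the AG181028 samples. Those 4 were singled out by p in these same libraries, so their shared sign adds no separate support. In the AG181017 samples (2 NEC, 2 control) the difference in mean log2 CPM was 0.78 for Cldn4, 0.82 for Cldn23, -0.67 for Cldn12 and -0.37 for Cldn15. In the AG181028 samples (1 NEC, 1 control, with no replicate) it was 1.30 for Cldn4, 1.38 for Cldn23, -0.96 for Cldn12 and -2.13 for Cldn15. Cldn8 differed most between the sets, at -0.30 and 5.44. The meaning of the code is not given in the labels.

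**Figure D4:**
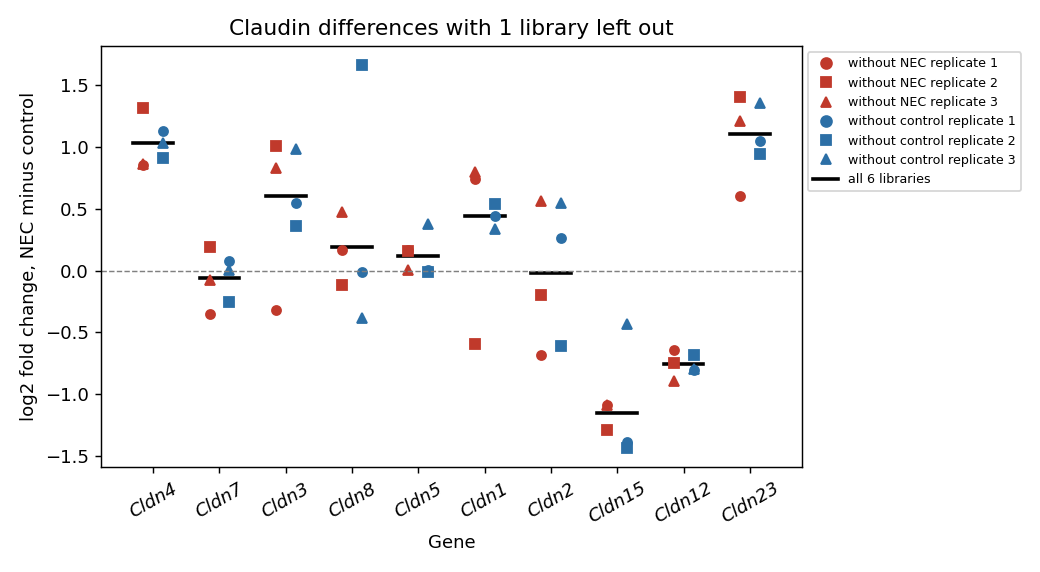
Log2 fold change of each claudin (NEC minus control) when 1 library is left out, with a black line for all 6 libraries, red for an omitted NEC library and blue for an omitted control library. Cldn4 and Cldn23 stay above 0 and Cldn12 and Cldn15 below 0 in these fits, while the other 6 genes cross 0.

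Leaving out Cldn2, Cldn4 made up 50.4%, 50.8% and 61.4% of claudin CPM per kilobase in NEC replicates 1 to 3, against 39.8%, 39.1% and 36.1% in control replicates 1 to 3. Cldn7 made up 28.7%, 28.7% and 26.5% in NEC, against 45.2%, 36.7% and 42.3% in control. The groups did not overlap for either share. The share of Cldn12 did not overlap either, at 0.353%, 0.928% and 0.612% in NEC and 1.15%, 1.82% and 1.21% in control. All shares are parts of 1 sum and so move against each other. Per length, the ratio of Cldn4 to Cldn7 was 1.76, 1.77 and 2.32 in NEC and 0.881, 1.06 and 0.853 in control libraries, so Cldn4 exceeded Cldn7 in all 3 NEC and in 1 of 3 control libraries. The ratio of Cldn23 to Cldn12 was 12.5, 3.68 and 4.77 in NEC and 1.78, 1.25 and 2.47 in control. Of the 45 ratios between members, 9 did not overlap between groups (20%), and the share over ratios of other genes was not computed. Each of the 9 involved Cldn4, Cldn12, Cldn15 or Cldn23. Those genes were singled out by p in the same libraries and enter most of the ratios, so this adds no separate support. The shares and ratios named were picked after their values were seen and carry no test.

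**Figure D5:**
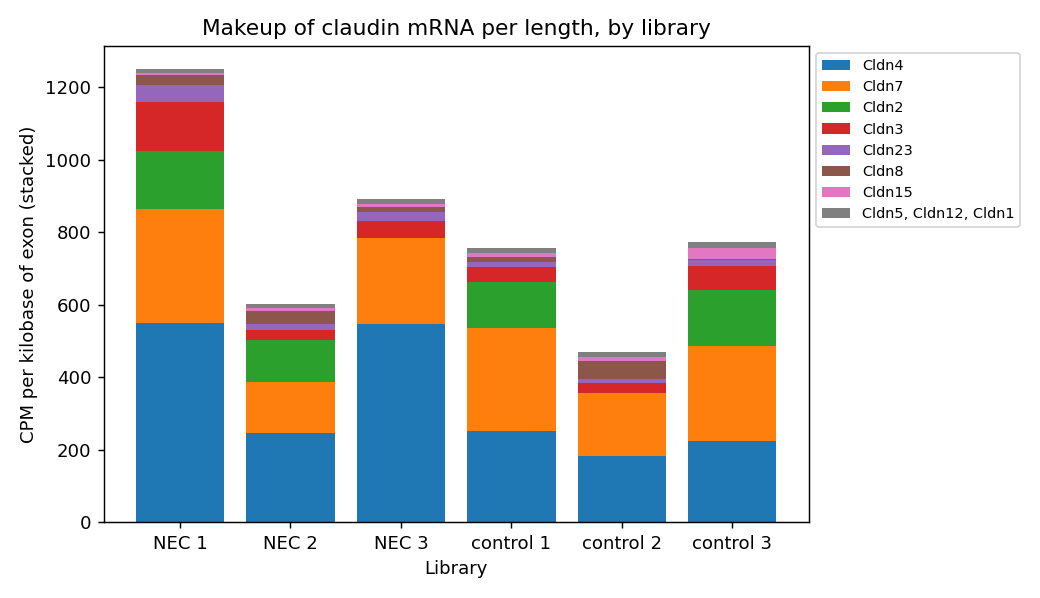
Stacked bars of claudin CPM per kilobase of exon in each library, with NEC libraries on the left and control libraries on the right. Cldn4 takes 247 to 551 in NEC and 184 to 251 in control, and the Cldn2 segment is too thin to see in NEC replicate 3 and control replicate 2.

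Summed over the claudins grouped here as sealing (Cldn1, Cldn3, Cldn4, Cldn5, Cldn7 and Cldn8) the level was 1033, 456 and 853 CPM per kilobase in NEC and 598, 442 and 563 in control, with overlap through NEC replicate 2. Cldn15 amounted to 0.711, 2.09 and 0.862 per 100 of this sum in NEC and 1.92, 2.31 and 5.71 in control. With Cldn2 added, the channel-forming pair amounted to 16.2, 27.8 and 0.863 per 100 in NEC and 23.2, 2.31 and 33.1 in control, a value set by whether Cldn2 was counted.

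Of the other claudins few were measurable. The table holds 33 genes named as claudins (pseudogenes left out), 12 of them at 0 in every library, and 15 passed the filter, among them the 10 above. Of the others, Cldn10, an ion-selective claudin known from kidney, was higher in every NEC library, at 0.986, 2.13 and 3.81 CPM in NEC and 0.531, 0.919 and 0.190 CPM in control (log2 fold change 2.08, SE 0.72, edgeR adjusted p = 0.233). Groups did not overlap for 22.4% of all genes. DESeq2 called Cldn10, against 7.57% of all genes, and limma-voom called 0 of these claudins. Cldn19, known from kidney and Schwann cells, had 8.54 ± 2.75 CPM in NEC and 17.2 ± 8.74 CPM in control (SD, n = 3 each; log2 fold change -1.01, edgeR adjusted p = 0.347). Cldn34c1 averaged 1.15 CPM in NEC and 1.06 CPM in control, and the claudin-domain gene Cldnd1 averaged 49.7 CPM in NEC and 39.3 CPM in control, with log2 fold changes of 0.13 and 0.34. Cldn18, the claudin of stomach, was at 0 in all libraries.

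Among membrane partners of the claudins in the junction, 0 of 11 measured were called by edgeR, with 1 at an unadjusted p below 0.05 and a median log2 fold change of -0.055. That gene was Ildr1, which encodes an angulin of tricellular junctions, at 28.2, 10.1 and 15.5 CPM in NEC and 7.28, 7.84 and 4.23 CPM in control (log2 fold change 1.48, SE 0.44, edgeR adjusted p = 0.175), with every NEC library higher. DESeq2 called Ildr1 and limma-voom called 0 of the 11. The tricellulin gene Marveld2 and its relative Marveld3 had log2 fold changes of 0.34 and 0.26. Of 13 cytoplasmic scaffold genes measured, which include Tjp1 and Cgn, 0 were called and 0 had an unadjusted p below 0.05 by edgeR, DESeq2 or limma-voom, with a median of -0.044. Those with the smallest p were the polarity genes Pard6b (1.12, SE 0.58) and Prkci (-0.35, SE 0.23) and the scaffold gene Magi1 (-0.68, SE 0.51).

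Among genes that stabilise, cleave or phosphorylate junction proteins, 0 of 8 measured were called and 0 had an unadjusted p below 0.05 by edgeR, DESeq2 or limma-voom (median log2 fold change -0.18). The smallest p were those of the myosin kinase gene Mylk (-0.71, SE 0.51) and the kinase genes Wnk1 (-0.23, SE 0.20) and Wnk4 (-0.28, SE 0.41). Mylk is also a smooth muscle gene, and smooth muscle markers summed to 1019 to 3009 CPM in NEC and 865 to 2050 CPM in control; their part in the Mylk value was not tested. Of 14 transcription factors known to act on claudin genes 0 were called and 1 had an unadjusted p below 0.05 by edgeR, DESeq2 or limma-voom (median -0.033). It was Hnf4a, a regulator of enterocyte genes, at 360, 507 and 379 CPM in NEC and 655, 587 and 606 CPM in control (log2 fold change -0.57, SE 0.24, edgeR adjusted p = 0.311), with every NEC library lower. Foxo1 (0.54, SE 0.26) and Cdx2 (-0.42, SE 0.27) followed. The medians of these lists stand beside 0.026 over all genes, and the lists were written with earlier results of these data known. Over all genes edgeR called 0.704%, DESeq2 7.57% and limma-voom 0.787%. By edgeR 15.6% of all genes had an unadjusted p below 0.05. Groups did not overlap for 22.4% of all genes, beside which Ildr1 and Hnf4a are to be read.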

How the data were processed

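RNA of 6 mouse intestine samples was sequenced as 150 bp read pairs, per the labels' protocols. The authors deposited 1 table of raw gene counts. The build is mm10, per the submitters' processing notes, and which aligner, counter, annotation and strandedness they used was not given in the sources used here. Of 54446 identifiers 37 had no symbol. The test was edgeR's, version 4.0.16 under R 4.3.3 (filterByExpr with minimum count 10, TMM, robust=TRUE, quasi-likelihood F test, Benjamini-Hochberg over 19176 genes, threshold 0.05). Fold changes are NEC over control, and the SE is the log2 fold change divided by the root of F. Levels per length used merged exons of GENCODE M21. The procedure was tested on simulated data, where changes of about the size fitted for Cldn4 were not called. The changed genes were drawn at random from all that averaged at least 1 CPM. The test therefore does not show how a gene at the level and spread of Cldn4 would fare. DESeq2 1.42.0 and limma-voom 3.58.1, other scalings and filters, a replicate block, the sample code and each library left out were alternatives. No 2 libraries differed by as little as sampling noise. Named genes were all members, other claudins averaging at least 1 CPM in a group, and of each partner list the called genes and the 3 with the smallest p. The members and lists were chosen with earlier results of these data known. Protein sequences were not used here.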

Additional observations from a re-analysis of the deposited data

How the results depend on the processing

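No alternative called a claudin, with a smallest adjusted p of 0.0564 over 17 alternatives. Of 170 log2 fold changes under alternatives 153 kept their sign, and Cldn4, Cldn12, Cldn15 and Cldn23 kept it in all. Those genes also had the smallest unadjusted p in the same libraries, so this adds no separate support. The median of the members ran from -0.079 to 0.52. Signs turned for Cldn2 with RLE scaling (0.0026), library size only (0.11), DESeq2 (0.0027) and the replicate block (0.32), and for Cldn8 in the AG181017 samples alone (-0.43). Without a change of sign, Cldn8 (0.19) was 1.76 by limma-voom, 1.40 with the replicate block and 1.01 with the sample code; Cldn3 (0.61) was 0.35, 0.33 and 0.37, and 0.02 in the AG181017 samples alone; Cldn1 (0.44) was 0.13 by limma-voom and 0.09 with the replicate block. In the AG181017 samples alone Cldn5 (0.12) was 0.42, Cldn7 (-0.06) was -0.31 and Cldn15 (-1.15) was -0.38. With 1 library left out Cldn1 ran from -0.59 to 0.80, Cldn2 from -0.68 to 0.57, Cldn3 from -0.32 to 1.01, Cldn5 from -0.0087 to 0.38, Cldn7 from -0.35 to 0.20 and Cldn8 from -0.38 to 1.66. Over all genes 135 were called, against 247 without a filter, 1452 by DESeq2, 54 with the replicate block, 243 with the sample code, 25 in the AG181017 samples alone and 0 to 106 with 1 library left out (0 without control replicate 1, 3 without NEC replicate 3). The causes were not tested. The labels do not say that replicate numbers pair samples, and same-numbered libraries deviated from their group means with r of -0.16, 0.37 and -0.013 across genes, so the numbers were not taken as pairs; not every sample correlated best with its own number, and the replicate block changed no claudin call.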

Other observations

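Outside the claudins, 8 goblet and Paneth cell genes summed to 1030 to 2549 CPM in NEC and 836 to 1587 CPM in control. Of these, 1 was called by edgeR, 2 by DESeq2 and 0 by limma-voom. By edgeR 6 of 8 had an unadjusted p below 0.05, against 15.6% of all genes. The median log2 fold change of the list was 1.09. Mmp7, Defa24, Agr2, Lyz1 and Tff3 were the higher ones of those 6 and Clca1 the lower one. Mmp7, called by edgeR and DESeq2, was at 30.8 ± 24.6 CPM in NEC and 1.43 ± 0.552 CPM in control (SD, n = 3 each). Clca1, called by DESeq2, was at 22.4 ± 11.4 CPM in NEC and 106 ± 22.7 CPM in control (SD, n = 3 each). Gastric markers, which accompany Cldn18 in stomach, summed to 0.346 to 0.661 CPM in NEC and 0.0545 to 0.352 CPM in control, with Tff1 at 0 in every library. Leukocyte markers, 8 genes, summed to 132 to 229 CPM in NEC and 261 to 349 CPM in control, with 0 called by edgeR (3 at an unadjusted p below 0.05), 3 by DESeq2 and 0 by limma-voom. These 3 went opposite ways: Csf1r, most of the sum, was lower at 129.8 CPM in NEC and 278 CPM in control, while S100a8 was higher at 5.36 CPM in NEC and 0.142 CPM in control and S100a9 at 5.28 CPM in NEC and 0.189 CPM in control, and the median log2 fold change of the list was 0.63. Fibroblast markers summed to 466 to 1884 CPM in NEC and 641 to 915 CPM in control, and neuron and glia markers to 32.3 to 67.7 CPM in NEC and 34.4 to 55.5 CPM in control, with S100b called lower by DESeq2 (0.949 CPM in NEC and 4.99 CPM in control). Pancreatic acinar markers summed to 7.80 to 77.3 CPM in NEC and 20.5 to 143 CPM in control, ileal markers to 782 to 1254 CPM in NEC and 930 to 966 CPM in control, and colonic markers to 249 to 518 CPM in NEC and 247 to 339 CPM in control. Among the colonic markers Aqp8 was lower at 2.74 CPM in NEC and 33.8 CPM in control and was called by DESeq2, while Muc2 had 334 CPM in NEC and 159 CPM in control (log2 fold change 1.07, not called).

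Besides Cldn2, 1 other gene identifier (Cbx6, ENSMUSG00000089715) was at 10 CPM or above in the same 4 libraries and under 0.3 CPM in NEC replicate 3 and control replicate 2.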
